A study of Mus musculus with 8 samples.

Results

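The host by antibody interaction is the amount by which blocking the interleukin-6 (IL-6) receptor changed expression differently in tumour-bearing and in tumour-free mice. It is a difference of differences: anti-IL-6R minus control antibody in tumour-bearing mice, less the same difference in tumour-free mice. All 8 samples of the series entered it, 2 in each of 4 groups, and it was fitted for 21519 genes. The host mice were C57BL/6 and either carried MCA205, a fibrosarcoma made to express ovalbumin (OVA), or had no tumour. In all groups the hosts were given CD4+ T cells whose transgenic receptor recognises OVA, and they were then immunised with dendritic cells loaded with OVA peptide. Either a control antibody or one that binds and blocks the IL-6 receptor (anti-IL-6R) was given, and the CD4+ cells were taken out after 4 days. The groups were tumour-bearing anti-IL-6R (replicates 7 and 8), tumour-bearing control (replicates 3 and 4), tumour-free anti-IL-6R (replicates 5 and 6) and tumour-free control (replicates 1 and 2). The series asks whether IL-6 lowers T helper 1 (Th1) responses in mice with tumours. Age and sex of the mice, antibody clones and doses, purity of the isolates and mice per sample are not stated in the sources used here.

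IL-6 binds its receptor, the complex signals through gp130 and Janus kinases, and the transcription factor STAT3 is then phosphorylated. In CD4+ T cells STAT3 favours follicular helper (Tfh) and Th17 programmes and the factor c-Maf, which activates Il4 and Il21. IL-6 also acts on other cells, among them liver and myeloid cells, so an antibody given to the whole animal reaches more than the T cells.

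Each level below is the log2 processed signal of a gene's brightest kept probe minus the 75th percentile of its array, so 0 marks the 75th percentile. Levels compare samples for 1 gene, not genes with each other. Differences are log2 units ± standard error (SE) from limma with n = 2 arrays per group, and adjusted p-values are over all 21519 genes. The labels give 2 independent experiments per condition without saying which arrays belong to the same one, so the p-values reflect only how far these samples differ from each other, which may be technical. Between 53.09% and 59.76% of probes passed the scanner software's well-above-background call on each array, with no saturated spots. All arrays shared 1 slide: control antibody arrays filled column 1 and anti-IL-6R arrays column 2, with rows 3 and 4 holding samples from tumour-bearing mice and rows 1 and 2 those from tumour-free mice, so position cannot be told apart from the groups. The T cell label held, with Cd3e between 6.19 and 6.47 and Cd4 between 5.15 and 5.65 on all arrays. Markers of red cells, neutrophils, B cells and NK cells were also present, and in these bulk isolates fewer cells of a type and less RNA per cell cannot be told apart.

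More genes passed the test of the antibody effect in tumour-bearing than in tumour-free mice. At an adjusted p under 0.05, 1266 genes (5.88% of those tested) differed between anti-IL-6R and control antibody in tumour-bearing mice, 439 higher (2.04%) and 827 lower (3.84%). In tumour-free mice 4 genes did (0.0186%), Firre and C530050E15Rik lower, 4930523O13Rik and Olfr913 higher. The probes of 4930523O13Rik and Olfr913 were kept only through tumour-free anti-IL-6R, the group where they were high. The difference between the hosts was tested by the interaction itself. It passed an adjusted p of 0.05 for 9 genes (0.0418%), 2 above 0 (0.00929%) and 7 below 0 (0.0325%). A wider threshold of 0.1, chosen after the values were seen, took in 1454 genes (6.76%), 593 above 0 (2.76%) and 861 below (4%), and an unadjusted p under 0.05 was reached by 5419 genes (25.2%). Over all genes the median interaction was -0.09, with a median SE of 0.18, and 61% lay below 0.

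**Figure D1:**
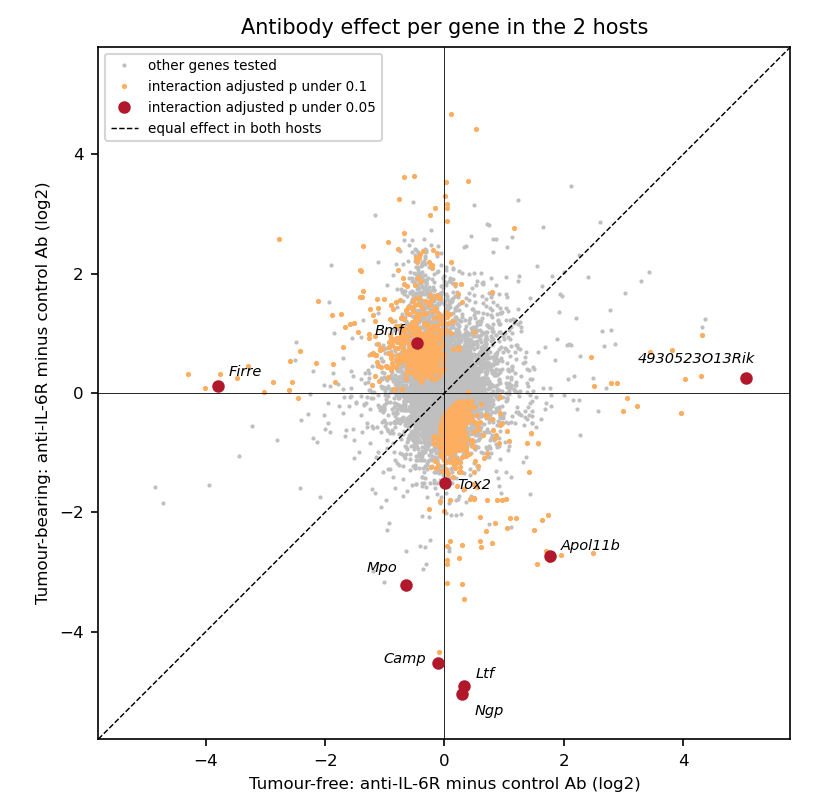
Antibody effect (anti-IL-6R minus control antibody, log2) in tumour-bearing mice against that in tumour-free mice, 1 point per gene, grey where the interaction did not pass an adjusted p of 0.1, orange where it did and red for the 9 genes past 0.05; the dashed diagonal is where both effects are equal and the interaction is 0. Ngp, Ltf, Camp and Mpo lie far below the diagonal with tumour-free effects between -0.65 and 0.32.

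The 2 antibody effects share no arrays, and across the 21519 genes, which are not independent of each other, their Pearson correlation was -0.09. These counts depended on single arrays. Without replicate 8, a tumour-bearing anti-IL-6R array, 19 genes differed in tumour-bearing mice, and without the tumour-bearing control replicates 3 or 4 the numbers were 215 and 263. Leaving out tumour-free control replicates 1 or 2 gave 822 and 833. In tumour-free mice the count was 0 and 2 without replicates 1 and 2, 8 each without 3 and 4, and 21 and 30 without 5 and 6. The interaction count was 3 without replicate 8 and 6 without replicate 2, and it was 14, 62, 63, 362 and 466 without replicates 3, 4, 1, 6 and 7. The count at 0.1 was 6, 15, 68, 94 and 539 without replicates 2, 8, 5, 3 and 4, and 2928 and 2747 without 1 and 7. The rule for naming genes took in 83 past the threshold for the antibody effect in tumour-bearing mice. None of the 83 reversed with any array left out, but 5 of the 83 remained past the threshold without replicate 8 (Ngp, Ltf, Camp, Mpo and Tox2), and 28 and 37 without replicates 3 and 4.

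Genes were then sorted by which single group stood apart: its mean was the highest or the lowest, the gap to the nearest other mean exceeded the range of the other 3 means, and both its arrays lay outside the other 6. The sorting uses the same values as the interaction and is a description. Over all genes the tumour-bearing control group stood apart for 3838, high for 2253 (10.5%) and low for 1585 (7.37%). The tumour-bearing anti-IL-6R group was high for 346 (1.61%) and low for 794 (3.69%), tumour-free anti-IL-6R high for 613 (2.85%) and low for 244 (1.13%), and tumour-free control high for 368 (1.71%) and low for 427 (1.98%). No single group stood apart for 14889 genes (69.2%). When 1 array of a group is left out, only its remaining array has to lie outside the others. The rule is then looser for that group, and its number can rise for that reason alone. Without replicate 7 the order changed, with 4337 genes for tumour-bearing anti-IL-6R and 3198 for tumour-bearing control. The number for tumour-bearing anti-IL-6R, 1140 with all arrays, was 2541 without replicate 2, and that for tumour-bearing control was 5850 without 4. For tumour-free anti-IL-6R, 857 with all arrays, it was 1706 and 2260 without 5 and 6, and for tumour-free control, 795 with all arrays, 2559, 1522 and 1278 without 1, 2 and 8.

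**Figure D2:**
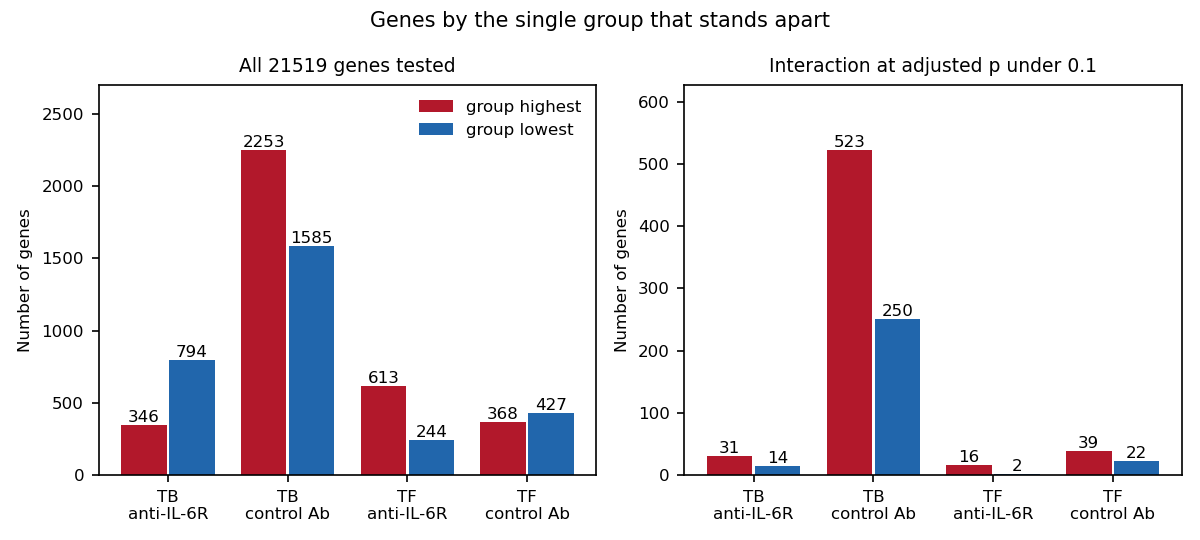
Number of genes for which each group stands apart, high or low, over all genes tested and among genes past an adjusted p of 0.1 for the interaction. The tumour-bearing control group holds the most genes in both panels, 3838 of all genes and 773 of the 1454.

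Among the 1454 genes at an adjusted p under 0.1, tumour-bearing control stood apart for 773 (523 high, 250 low), tumour-free control for 61 (39 high, 22 low), tumour-bearing anti-IL-6R for 45 (31 high, 14 low) and tumour-free anti-IL-6R for 18 (16 high, 2 low). The remaining 557 fitted no single group. In 176 of these the tumour-bearing control mean was the highest and the tumour-bearing anti-IL-6R mean the lowest, and in 162 tumour-free control was the highest and tumour-bearing control the lowest. Of the 9 genes past 0.05, 6 had tumour-bearing control apart, all high.

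The gene with the smallest adjusted p was Camp, which encodes cathelicidin, an antimicrobial peptide stored in neutrophil granules. Its levels were -1.83 and -1.44 in tumour-bearing anti-IL-6R, 2.95 and 2.81 in tumour-bearing control, -1.80 and -1.27 in tumour-free anti-IL-6R and -1.71 and -1.16 in tumour-free control. Both tumour-bearing control arrays lay at or above 2.81 and the other 6 at or below -1.16. Camp fell by 4.52 ± 0.23 under anti-IL-6R in tumour-bearing mice (adjusted p = 0.00095) and stood at -0.10 ± 0.23 in tumour-free mice, an interaction of -4.42 ± 0.33 (adjusted p = 0.018). It was the only gene of the 9 to stay past 0.05 with each array left out in turn.

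Ngp, neutrophilic granule protein, and Ltf, the iron-binding granule protein lactoferrin, also had tumour-bearing control apart, high. Ngp stood at -4.74 and -4.68 in tumour-bearing anti-IL-6R, 0.37 and 0.31 in tumour-bearing control, -3.95 and -3.34 in tumour-free anti-IL-6R and -4.37 and -3.52 in tumour-free control. It was not well above background on either tumour-bearing anti-IL-6R array, where it was at least 21.3-fold lower than in tumour-bearing control (adjusted p = 0.0014). The size of its interaction, -5.34 ± 0.45 (adjusted p = 0.021), is therefore not exact. Ltf levels were -3.63 and -3.19 in tumour-bearing anti-IL-6R, 1.56 and 1.45 in tumour-bearing control, -3.43 and -2.82 in tumour-free anti-IL-6R and -3.95 and -2.95 in tumour-free control (interaction -5.23 ± 0.48, adjusted p = 0.028). Only 1 of 2 arrays was well above background for Ngp in each tumour-free group and for Ltf in tumour-free control. The sizes of both interactions are uncertain for this reason too. Without replicate 8 the adjusted p was 0.067 for each, and without replicate 3 it was 0.06 for Ltf.

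Ngp and Ltf also share a motif before their start sites, in the 250 bases shown from RefSeq's GRCm38.p6 table (chr9:110419558-110419807 and chr9:111019042-111019291, both on the plus strand). Capitals mark TTGCNNAA or, on the other strand, TTNNGCAA, the letters bound by C/EBP factors, which drive granule genes. They are printed because Ngp and Ltf had the largest interactions past the threshold.
Ngp: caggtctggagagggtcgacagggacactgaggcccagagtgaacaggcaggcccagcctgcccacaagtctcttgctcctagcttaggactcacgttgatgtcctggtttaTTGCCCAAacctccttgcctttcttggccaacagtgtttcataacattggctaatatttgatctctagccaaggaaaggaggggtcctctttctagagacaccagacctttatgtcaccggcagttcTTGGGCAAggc
Ltf: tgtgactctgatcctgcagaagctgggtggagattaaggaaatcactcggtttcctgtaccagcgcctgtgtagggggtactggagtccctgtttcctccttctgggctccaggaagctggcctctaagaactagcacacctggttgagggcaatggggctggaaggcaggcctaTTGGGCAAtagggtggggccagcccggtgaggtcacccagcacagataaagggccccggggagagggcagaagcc
Ngp held 2 matches and Ltf 1, while the windows of Camp and Mpo held 0, and 9.56% of 32851 promoter windows of this length held at least 1. A match is a run of letters and not a measured site.

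Mpo, the peroxidase of primary granules, stood at -3.38 and -3.44 in tumour-bearing anti-IL-6R, -0.05 and -0.35 in tumour-bearing control, -4.0 and -3.94 in tumour-free anti-IL-6R and -3.17 and -3.47 in tumour-free control. Its interaction was -2.56 ± 0.28 (adjusted p = 0.046), not exact because tumour-free anti-IL-6R was not well above background. A second kept probe gave -2.63, also not exact. That probe was kept only through tumour-bearing control, the group where it was high, so it adds no separate support. In tumour-bearing mice Mpo fell by 3.21 ± 0.20 under anti-IL-6R (adjusted p = 0.0014). Of 24 neutrophil markers 22 were measured, and 8 of the 22 fell in tumour-bearing mice and 0 rose, against 3.84% of all genes lower. Among the 8, Lcn2 (lipocalin 2) fell by 2.48 and Ctsg (cathepsin G) fell by 1.81. The number that fell was 4 without replicate 3, 4 or 8, these being Camp, Ngp, Ltf and Mpo. The median interaction of the list was -1.20, against -0.09 over all genes. At an adjusted p under 0.1, 9 members lay below 0 and 1 above, against 4% and 2.76% of all genes. Those 9 became 3, 4, 5 and 3 without replicates 2, 3, 4 and 8. The abundant neutrophil genes S100a8 and S100a9 had another order. S100a8 stood at 3.67 and 2.97 in tumour-bearing anti-IL-6R, 4.87 and 4.87 in tumour-bearing control, 3.20 and 5.26 in tumour-free anti-IL-6R and 2.95 and 3.69 in tumour-free control, so 1 tumour-free anti-IL-6R array exceeded both tumour-bearing control arrays. The summed scaled signal of the list was 354.74 and 336.45 in tumour-bearing anti-IL-6R, 368.44 and 363.43 in tumour-bearing control, 258.04 and 388.89 in tumour-free anti-IL-6R and 263.41 and 313.37 in tumour-free control, so tumour-free anti-IL-6R spanned all other arrays. The part of neutrophil RNA in the granule gene results was not tested. Mpo's adjusted p was 0.15, 0.083, 0.058 and 0.12 without replicates 2, 3, 5 and 8.

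**Figure D3:**
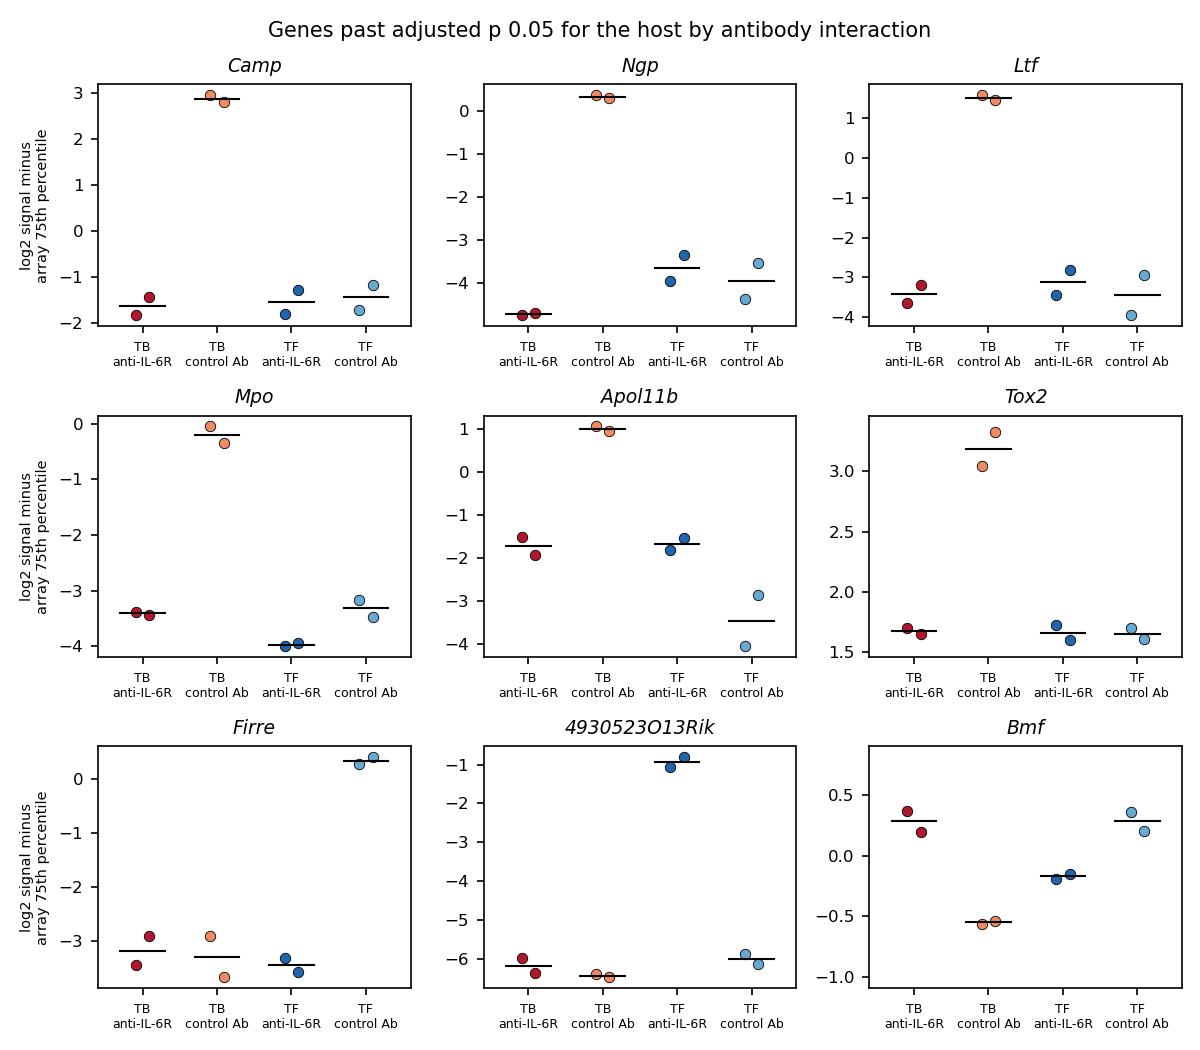
Levels of the 9 genes past an adjusted p of 0.05 for the interaction (log2 signal minus the array's 75th percentile), 1 point per array with a line at each group mean; TB, tumour-bearing; TF, tumour-free. Tumour-bearing control stands alone for Camp, Ngp, Ltf, Mpo, Apol11b and Tox2, tumour-free control for Firre and tumour-free anti-IL-6R for 4930523O13Rik.

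Apol11b, a member of the apolipoprotein L family, was the fifth gene with tumour-bearing control high. Its levels were -1.52 and -1.94 in tumour-bearing anti-IL-6R, 1.05 and 0.95 in tumour-bearing control, -1.83 and -1.55 in tumour-free anti-IL-6R and -4.06 and -2.86 in tumour-free control. It fell by 2.73 ± 0.35 under anti-IL-6R in tumour-bearing mice (adjusted p = 0.024) and it stood at 1.77 in tumour-free mice (adjusted p = 0.26), an interaction of -4.51 ± 0.49 (adjusted p = 0.046). Apol11b was well above background on 1 of the 2 tumour-free control arrays, so the size of its interaction is uncertain. The adjusted p of the interaction was 0.075, 0.055 and 0.12 without replicates 3, 5 and 8, and the antibody call was lost without 3 or 8.

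Tox2 was the one gene of the 9 on the Tfh list. It encodes an HMG-box transcription factor of Tfh cells. Levels were 1.70 and 1.65 in tumour-bearing anti-IL-6R, 3.04 and 3.32 in tumour-bearing control, 1.73 and 1.60 in tumour-free anti-IL-6R and 1.70 and 1.61 in tumour-free control, so the other 6 arrays lay between 1.60 and 1.73. Tox2 fell by 1.5 ± 0.11 under anti-IL-6R in tumour-bearing mice (adjusted p = 0.0025) and stood at 0.01 in tumour-free mice, an interaction of -1.51 ± 0.15 (adjusted p = 0.041). A second, dimmer probe gave an interaction of 0.13. Without replicates 2, 5 and 8 the adjusted p of the interaction was 0.15, 0.057 and 0.097, while the antibody call in tumour-bearing mice was kept with each array left out.

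Other genes of the Tfh programme fell with Tox2 in tumour-bearing mice under anti-IL-6R: 10 of 22 measured members passed and 0 rose, against 3.84% of all genes lower. None of the 22 passed in tumour-free mice. The list's median interaction was -0.60 (between -0.69 and -0.49 over the alternatives tried), and 20 of 22 values lay below 0, against 61% of all genes. At an adjusted p under 0.1, 10 were below 0, against 4% of all genes. Without replicates 8 and 4 the number that fell was 1 and 3. Those at 0.1 became 0, 5, 5, 1 and 1 without replicates 2, 3, 4, 5 and 8. Cxcr5, the chemokine receptor that guides cells to B cell follicles, was 2.40 and 2.15 in tumour-bearing anti-IL-6R, 3.30 and 3.68 in tumour-bearing control, 2.54 and 2.16 in tumour-free anti-IL-6R and 2.44 and 2.46 in tumour-free control. It fell by 1.21 in tumour-bearing mice (adjusted p = 0.024), with an interaction of -1.11 ± 0.23 (adjusted p = 0.081). For Cxcr5, tumour-free anti-IL-6R overlapped both tumour-bearing anti-IL-6R and tumour-free control, which did not overlap each other.

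A stepwise order was seen for Ascl2, a Tfh transcription factor, and for Pdcd1, which encodes PD-1, an inhibitory receptor. Ascl2 stood at -0.66 and -0.71 in tumour-bearing anti-IL-6R, 0.05 and 0.60 in tumour-bearing control, -2.56 and -2.40 in tumour-free anti-IL-6R and -2.59 and -2.61 in tumour-free control. Pdcd1 was 2.09 and 1.99 in tumour-bearing anti-IL-6R, 2.72 and 3.02 in tumour-bearing control, 1.44 and 1.35 in tumour-free anti-IL-6R and 1.18 and 0.94 in tumour-free control. Tumour-bearing anti-IL-6R thus lay between tumour-bearing control and both tumour-free groups. In tumour-bearing mice Ascl2 fell by 1.01 (adjusted p = 0.027) and Pdcd1 by 0.83 (adjusted p = 0.024), with interactions of -1.13 (adjusted p = 0.086) and -1.16 (adjusted p = 0.063). Icos, a costimulatory receptor, fell by 0.55 in tumour-bearing mice (adjusted p = 0.024; interaction -0.88, adjusted p = 0.057). Bcl6, the lineage factor of Tfh cells, stood at -0.39 (adjusted p = 0.051), with an interaction of -0.47 (adjusted p = 0.10), and 0.08 by its other kept probe. The antibody calls of Ascl2, Pdcd1 and Icos were lost without replicate 4 or 8, and that of Cxcr5 without 8.

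Maf, which encodes c-Maf, had levels of 2.00 and 1.86 in tumour-bearing anti-IL-6R, 2.67 and 2.64 in tumour-bearing control, 1.80 and 1.79 in tumour-free anti-IL-6R and 1.64 and 1.43 in tumour-free control. It fell by 0.73 ± 0.09 in tumour-bearing mice (adjusted p = 0.024), stood at 0.27 in tumour-free mice, and had an interaction of -0.99 ± 0.13 (adjusted p = 0.057). All 3 of its probes gave values below 0, from -1.03 to -0.75. Of 16 measured genes in the c-Maf list, which holds Maf and genes reported as its targets, 9 fell and 1, the inhibitory receptor gene Havcr2, rose by 0.65 in tumour-bearing mice. Of all genes, 3.84% were lower and 2.04% higher. The list's median interaction was -0.86, with 8 below 0 and 0 above at an adjusted p under 0.1, against 4% and 2.76% of all genes. The 9 became 0, 4 and 4 without replicates 8, 3 and 4, and the 8 became 0, 4, 1 and 0 without 2, 3, 5 and 8. Maf lost its antibody call without 3 or 8, and Havcr2 without 3, 4, 7 or 8.

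Il4, the cytokine gene of Th2 and Tfh cells, was -0.36 and -0.25 in tumour-bearing anti-IL-6R, 1.49 and 1.12 in tumour-bearing control, -0.86 and -0.87 in tumour-free anti-IL-6R and -0.97 and -1.42 in tumour-free control. It fell by 1.61 ± 0.17 in tumour-bearing mice (adjusted p = 0.020; lost without replicate 8), with an interaction of -1.94 ± 0.25 (adjusted p = 0.057). Il21, which supports B cell help, stood at -0.90 and -0.33 in tumour-bearing anti-IL-6R, 0.47 and 1.16 in tumour-bearing control, -2.47 and -2.30 in tumour-free anti-IL-6R and -2.04 and -2.70 in tumour-free control. Its level fell by 1.43 ± 0.30 in tumour-bearing mice (adjusted p = 0.039), and its interaction was -1.41 ± 0.42 (adjusted p = 0.11). Both tumour-bearing groups lay above both tumour-free groups for Il21. A dimmer probe gave an interaction of -0.60, with means of -3.77 in tumour-bearing anti-IL-6R and -3.82 in tumour-bearing control. The call of Il21 was lost without replicates 3, 4, 7 or 8.

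The 250 bases before the upstream start of Il4 (chr11:53618666-53618915, minus strand, GRCm38.p6, RefSeq) are shown because c-Maf acts on this promoter. Capitals mark TGCTGA, a part of the Maf recognition element, or its reverse complement TCAGCA.
Il4: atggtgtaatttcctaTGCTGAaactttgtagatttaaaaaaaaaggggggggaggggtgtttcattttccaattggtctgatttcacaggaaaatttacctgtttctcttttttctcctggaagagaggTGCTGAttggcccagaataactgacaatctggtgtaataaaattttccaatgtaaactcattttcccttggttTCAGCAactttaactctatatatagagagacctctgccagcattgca
It held 3 matches, at -234 to -229, -120 to -115 and -47 to -42 from the start. The window of Il21 held 1, and 16.1% of 32851 windows held at least 1.

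**Figure D4:**
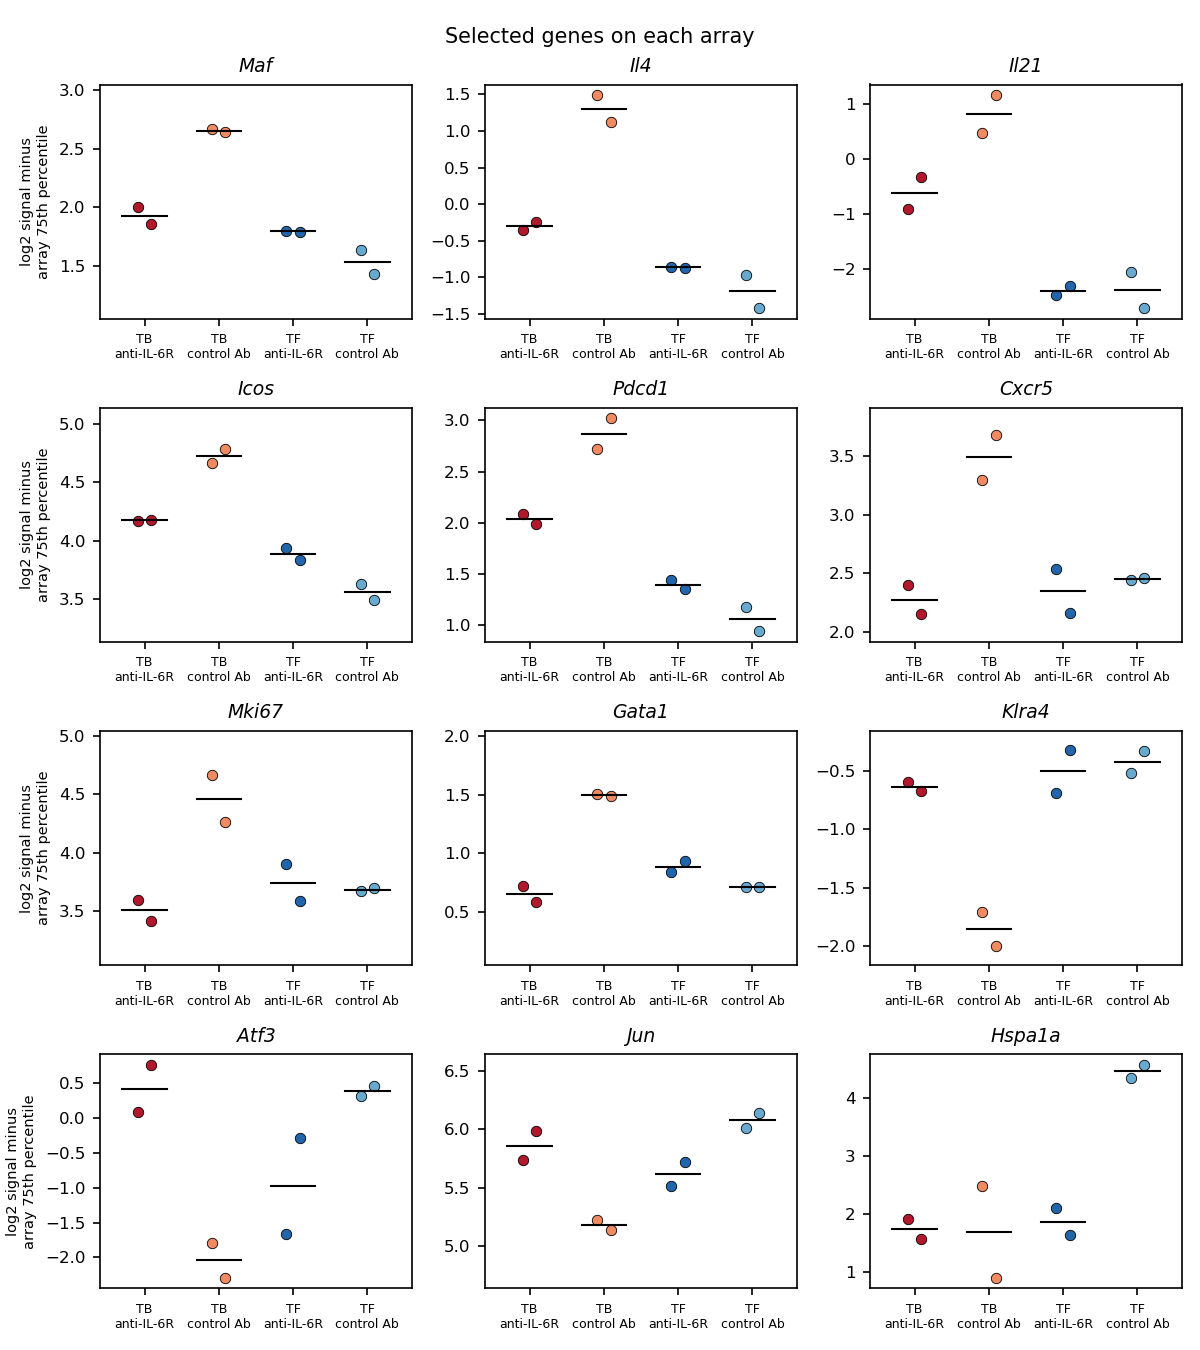
Levels of 12 selected genes on each array (log2 signal minus the array's 75th percentile), with lines at group means; TB, tumour-bearing; TF, tumour-free. Tumour-bearing control is highest for Maf, Il4, Il21, Icos, Pdcd1, Cxcr5, Mki67 and Gata1 and lowest for Klra4, Atf3 and Jun, and tumour-free control is highest for Hspa1a.

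Several further genes of helper subsets fell. Rora, a factor of Th17 cells, fell by 0.68 ± 0.07 in tumour-bearing mice (adjusted p = 0.016; interaction -0.68, adjusted p = 0.063). Lag3 and Tigit, inhibitory receptors, fell by 0.91 and 0.93 (adjusted p = 0.030 and 0.027; interactions -1.41 and -1.04). Cxcr6, a chemokine receptor of effector cells, fell by 0.96 ± 0.12 (adjusted p = 0.024; interaction -1.21, adjusted p = 0.057), and Ccr2, a receptor for inflammatory chemokines, by 0.96. The IL-33 receptor gene Il1rl1 fell by 0.84 and Ccr4 by 1.12. Of 13 measured Th2 genes 4 fell and 0 rose, of 9 Th17 genes 4 fell and 0 rose, of 22 regulatory T cell genes 5 fell and 0 rose, of 18 inhibitory receptor genes 4 fell and 1 rose, and of 23 chemokine receptor and homing genes 7 fell and 1 rose. Over all genes 3.84% were lower and 2.04% higher. Lists here share members, so their counts are not separate. Icos, for example, is in the Tfh, c-Maf and regulatory T cell lists, and Tigit in the c-Maf, regulatory T cell and inhibitory receptor lists. Without replicate 8 no gene of the Th2, Th17, regulatory T cell, inhibitory receptor or chemokine receptor lists fell. Without replicate 3 those that fell were 1, 1, 1, 1 and 2, and without replicate 4 they were 4, 2, 0, 1 and 6, in the order just given. Without replicate 1, 2 or 7, 2 Th17 genes fell. Foxp3, the regulatory lineage factor, stood at -0.20 in tumour-bearing mice (interaction -0.16, adjusted p = 0.43) and Ctla4 at 0.03 (interaction -0.24, adjusted p = 0.56). Rora and Cxcr6 lost their calls without 8, Ccr2, Ccr4 and Il1rl1 without 3 or 8, Tigit without 3, 4 or 8 and Lag3 without 3, 7 or 8.

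Of 23 measured Th1 genes 4 fell and 1 rose in tumour-bearing mice, against 3.84% of all genes lower and 2.04% higher. The median interaction was -0.28, and 18 of 23 values lay below 0, against 61% of all genes. At an adjusted p under 0.1, 6 were below 0 and 1 above, against 4% and 2.76% of all genes. Those 6 became 0, 1, 1 and 0 without replicates 2, 3, 5 and 8. Tbx21, the gene of the Th1 factor T-bet, was 2.17 and 1.93 in tumour-bearing anti-IL-6R, 2.77 and 2.51 in tumour-bearing control, 2.40 and 2.17 in tumour-free anti-IL-6R and 2.17 and 2.19 in tumour-free control. Its level fell by 0.60 ± 0.13 in tumour-bearing mice (adjusted p = 0.040; interaction -0.70, adjusted p = 0.094). Il12rb1, which encodes an IL-12 receptor chain, fell by 0.81 (adjusted p = 0.023), and the Th1 chemokine receptor gene Cxcr3 by 0.63 (adjusted p = 0.026). Ifng, the Th1 cytokine gene, lay on the other side of 0, at 1.86 and 2.47 in tumour-bearing anti-IL-6R, 1.25 and 1.93 in tumour-bearing control, 1.63 and 1.98 in tumour-free anti-IL-6R and 2.22 and 2.34 in tumour-free control. The tumour-bearing groups overlapped for Ifng, and neither its antibody effect of 0.58 ± 0.25 (adjusted p = 0.17) nor its interaction of 1.05 ± 0.36 (adjusted p = 0.13) passed. Ccl4 rose by 0.94, and Ccl3, a chemokine gene of the same family that no Th1 list held, was 0.80 and 1.07 in tumour-bearing anti-IL-6R, -0.50 and -0.57 in tumour-bearing control, 0.03 and 0.52 in tumour-free anti-IL-6R and 0.87 and 0.68 in tumour-free control. Ccl3 rose by 1.47 ± 0.17 in tumour-bearing mice (adjusted p = 0.021; interaction 1.97, adjusted p = 0.054), a call lost without replicate 8. Other chosen genes whose interaction did not pass either threshold were Gzmb (-0.37), Eomes (-0.28), Stat4 (-0.23), Il12rb2 (-0.07), Il2 (-0.59), Tnf (0.50), Il10 (1.1), Prdm1 (-0.05) and Cd40lg (0.42). Without replicate 8 no Th1 gene fell, and without replicate 3 the number was 2. Tbx21 lost its call without 1, 2, 3, 4 or 8, Cxcr3 without 3, 4 or 8 and Il12rb1 without 8. Ccl4 lost its call without 1, 2, 3, 4 or 8.

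The receptor blocked by the antibody is encoded by Il6ra, which stood between 5.42 and 5.85 on all arrays (interaction 0.27, adjusted p = 0.23). Il6st, the gene of gp130, had an interaction of -0.14. Stat3 fell by 0.34 ± 0.08 in tumour-bearing mice (adjusted p = 0.044; interaction -0.43, adjusted p = 0.094), though its 2 other probes gave interactions of 0.41 and 0.01. Socs3, a feedback inhibitor that STAT3 induces, was 4.05 and 4.06 in tumour-bearing anti-IL-6R, 4.58 and 5.28 in tumour-bearing control, 4.03 and 4.59 in tumour-free anti-IL-6R and 4.41 and 4.49 in tumour-free control. Its antibody effect in tumour-bearing mice was -0.87 ± 0.23 (adjusted p = 0.058) and its interaction -0.74 (adjusted p = 0.21). Of 18 genes of the IL-6 receptor and STAT3 axis 2 fell, against 3.84% of all genes. These were Stat3 and Batf, a partner of AP-1 factors, and the list's median interaction was -0.19. The number that fell was 1, 0, 1 and 0 without replicates 3, 4, 7 and 8. Stat3 lost its call without 1, 2, 3, 4, 7 or 8, and Batf without 3, 4 or 8. No level is given for Il6 or Il17a, which exceeded background clearly on 1 and 0 arrays.

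Cell division genes fell under anti-IL-6R in tumour-bearing mice, 32 of 39 measured members, against 3.84% of all genes. There 0 were higher, and 0 were past the threshold in tumour-free mice. All 39 interactions lay below 0, with a median of -0.75 (between -0.91 and -0.57 over the alternatives), and 27 passed an adjusted p of 0.1, against 4% of all genes below 0. Without replicates 2, 3, 5 or 8 those past 0.1 numbered 0, and without 4 they numbered 8. Mki67, the proliferation marker Ki-67, was 3.6 and 3.42 in tumour-bearing anti-IL-6R, 4.66 and 4.26 in tumour-bearing control, 3.90 and 3.59 in tumour-free anti-IL-6R and 3.67 and 3.70 in tumour-free control. It fell by 0.94 ± 0.15 in tumour-bearing mice (adjusted p = 0.024; interaction -1.0, adjusted p = 0.081). Both tumour-bearing control arrays were above the other 6. Orc1, a subunit of the origin recognition complex, fell by 1.03, Ccne1, cyclin E1, by 0.85 and E2f1, a factor that drives S-phase entry, by 0.71. Without replicates 8, 3 and 4 the number that fell was 0, 0 and 7, while 38 or 39 of the 39 antibody effects lay below 0 with any array left out. Mki67, Ccne1 and E2f1 lost their calls without 3 or 8 and Orc1 without 3, 4 or 8. Dividing cells of other types are also read by these genes, and erythroid and granule genes moved on the same arrays. Their part was not tested.

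Asns, asparagine synthetase, was -0.86 and -1.12 in tumour-bearing anti-IL-6R, 0.39 and 0.13 in tumour-bearing control, -1.02 and -1.12 in tumour-free anti-IL-6R and -1.28 and -1.20 in tumour-free control. It fell by 1.25 ± 0.14 in tumour-bearing mice (adjusted p = 0.020; interaction -1.42, adjusted p = 0.057), and Psat1, an enzyme of serine synthesis, by 0.61 (adjusted p = 0.024). The probes of Psat1 disagreed, since its other kept probe gave an interaction of 0.55, with means of -0.98 in tumour-bearing anti-IL-6R and -1.35 in tumour-bearing control. Asns and Psat1 were the 2 of 20 genes of the unfolded protein and ATF4 response that fell, against 3.84% of all genes, and the list's median interaction was -0.11. Of 20 glycolysis genes 4 fell, among them the lactate transporter gene Slc16a1 by 0.52, against the same 3.84%. Pfkl, a phosphofructokinase chain, was the 1 that rose, by 0.53, against 2.04% of all genes. Pfkl's other kept probe gave an interaction of -0.20, with means of 0.21 in tumour-bearing anti-IL-6R and 0.39 in tumour-bearing control. The number of glycolysis genes that fell was 2 without replicate 1 or 2 and 0 without 3, 4 or 8, and that of Asns and Psat1's list was 1, 1 and 0 without 3, 4 and 8. Asns lost its call without replicate 8, Psat1, Slc16a1 and Pfkl without 3, 4 or 8.

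Immediate early genes, many of which encode transcription factors, are induced within minutes of stimulation or of tissue handling. Most of them went the other way. Of 24 measured members 9 rose in tumour-bearing mice under anti-IL-6R and 0 fell, against 2.04% of all genes higher. Their median interaction was 0.77 (between 0.55 and 1.03 over the alternatives), with 10 above 0 and 1, Egr2, below at an adjusted p under 0.1, against 2.76% and 4% of all genes. In tumour-free mice the median antibody effect was -0.28 and none passed. Atf3, a stress-induced factor, was 0.08 and 0.76 in tumour-bearing anti-IL-6R, -1.79 and -2.29 in tumour-bearing control, -1.66 and -0.29 in tumour-free anti-IL-6R and 0.32 and 0.46 in tumour-free control. It rose by 2.47 ± 0.41 in tumour-bearing mice (adjusted p = 0.026) and stood at -1.36 in tumour-free mice (adjusted p = 0.53), an interaction of 3.83 ± 0.58 (adjusted p = 0.066). The tumour-bearing anti-IL-6R and tumour-free control groups overlapped for Atf3.

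Jun, a subunit of AP-1, had levels of 5.74 and 5.98 in tumour-bearing anti-IL-6R, 5.22 and 5.14 in tumour-bearing control, 5.51 and 5.72 in tumour-free anti-IL-6R and 6.01 and 6.14 in tumour-free control. Klf4, a zinc finger factor linked to T cell quiescence, stood at 3.14 and 3.45 in tumour-bearing anti-IL-6R, 2.01 and 2.32 in tumour-bearing control, 2.47 and 2.88 in tumour-free anti-IL-6R and 3.33 and 3.64 in tumour-free control. For both, tumour-free control had the highest mean, tumour-bearing anti-IL-6R came next and tumour-bearing control was lowest. Jun rose by 0.68 and Klf4 by 1.13 in tumour-bearing mice (adjusted p = 0.025 each; interactions 1.14 and 1.94, adjusted p = 0.057 each). Fosb, another AP-1 subunit, rose by 1.61 and Nr4a1, an orphan nuclear receptor induced by T cell receptor signals, by 0.76. Without replicates 3, 4 and 8 the number that rose was 0, 2 and 0, and it was 5 without replicate 1 or 2. Those above 0 at 0.1 became 0, 3, 3 and 0 without replicates 2, 3, 5 and 8. Jun and Atf3 lost their calls without 3, 4 or 8, Klf4 without 3 or 8, and Fosb and Nr4a1 without 1, 2, 3, 4 or 8. Handling times are not stated, and their part was not tested.

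Bmf, a BH3-only gene that promotes apoptosis, was the one gene of the 9 with no single group apart. Its levels were 0.37 and 0.20 in tumour-bearing anti-IL-6R, -0.56 and -0.54 in tumour-bearing control, -0.19 and -0.15 in tumour-free anti-IL-6R and 0.36 and 0.21 in tumour-free control. Bmf rose by 0.84 ± 0.10 in tumour-bearing mice (adjusted p = 0.024) and stood at -0.46 in tumour-free mice (adjusted p = 0.41), an interaction of 1.29 ± 0.15 (adjusted p = 0.048). A dimmer probe gave 0.21. Bbc3 (PUMA) rose by 1.24 in tumour-bearing mice (adjusted p = 0.016), but it stood 1.15 higher in tumour-free mice also (adjusted p = 0.05 rounded, not past it), and its interaction was 0.09. Pmaip1 (NOXA) rose by 0.92 (interaction 0.99), so 3 of 19 genes of the apoptosis list rose and 0 fell, against 2.04% of all genes higher and 3.84% lower. The list's median interaction was -0.02. The adjusted p of Bmf's interaction was 0.15, 0.075, 0.084 and 0.097 without replicates 2, 3, 5 and 8. Its antibody call was lost without 8, that of Pmaip1 without 3, 4 or 8, and 0 members rose without 8.

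In Firre it was tumour-free control that stood apart. Firre is a nuclear long non-coding RNA transcribed from the X chromosome. Levels were -3.45 and -2.91 in tumour-bearing anti-IL-6R, -2.91 and -3.67 in tumour-bearing control, -3.32 and -3.58 in tumour-free anti-IL-6R and 0.28 and 0.40 in tumour-free control. It fell by 3.79 ± 0.29 under anti-IL-6R in tumour-free mice (adjusted p = 0.0076), with an interaction of 3.90 ± 0.40 (adjusted p = 0.041). Its 2 kept probes disagreed: the other gave an interaction of 0.18, with means of -2.79 in tumour-bearing anti-IL-6R, -2.82 in tumour-bearing control, -2.84 in tumour-free anti-IL-6R and -2.69 in tumour-free control, and 2 further probes that were not well above background gave 0.20 and 0.25. The 60-base sequences of both kept probes are shown, since the result rests on the first alone. They lie on the minus strand at chrX:47911457-47911516 and chrX:47916405-47916464, as the array file gives them for mm9, and no base is capitalised.
First probe: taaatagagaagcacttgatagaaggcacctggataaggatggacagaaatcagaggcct
Other probe: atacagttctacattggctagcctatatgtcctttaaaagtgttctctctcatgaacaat
Without replicates 2, 5 and 8 the adjusted p of the interaction was 0.17, 0.05 (rounded, not past it) and 0.097.

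Tumour-free anti-IL-6R stood apart for 4930523O13Rik, a transcript known by its clone name. It had -5.96 and -6.36 in tumour-bearing anti-IL-6R, -6.37 and -6.46 in tumour-bearing control, -1.06 and -0.82 in tumour-free anti-IL-6R and -5.87 and -6.12 in tumour-free control. Only tumour-free anti-IL-6R was well above background, the group through which the probe was kept, at least 8.14-fold higher than tumour-free control (adjusted p = 0.0076). The interaction of -4.80 ± 0.55 (adjusted p = 0.048) is not exact, and its adjusted p was 0.15, 0.075, 0.098 and 0.097 without replicates 2, 3, 5 and 8. Olfr913, an odorant receptor gene, had the same shape, at -3.85 and -4.37 in tumour-bearing anti-IL-6R, -4.78 and -5.38 in tumour-bearing control, -1.31 and -1.24 in tumour-free anti-IL-6R and -5.45 and -5.74 in tumour-free control. Its probe too was kept only through tumour-free anti-IL-6R, and the other groups were not well above background. At an adjusted p under 0.1, the 3 other groups were all not well above background for some genes. This held for 11 of the 16 genes with tumour-free anti-IL-6R high and 15 of 31 with tumour-bearing anti-IL-6R high. It held for 9 of 39 with tumour-free control high and 11 of 523 with tumour-bearing control high. Over all genes of these classes it held for 24 of 613, 36 of 346, 14 of 368 and 79 of 2253, in that order.

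Tumour-free control stood apart, high, for Hspa1a and Hspa1b, which encode the inducible heat shock protein 70. Hspa1a stood at 1.91 and 1.57 in tumour-bearing anti-IL-6R, 2.48 and 0.90 in tumour-bearing control, 2.10 and 1.64 in tumour-free anti-IL-6R and 4.36 and 4.58 in tumour-free control. Its interaction was 2.65 ± 0.60 (adjusted p = 0.086), and that of Hspa1b 2.36 ± 0.56 (adjusted p = 0.091). The antibody effect in tumour-free mice was -2.60 for Hspa1a and -2.45 for Hspa1b (adjusted p = 0.17 each). The genes are near-identical copies, so their probes may read both. Their 250 bases before the start (chr17:34972157-34972406 and chr17:34959239-34959488, minus strand, GRCm38.p6, RefSeq) are equal at 247 positions and differ at 3, and are shown with the heat shock element GAANNTTC, or TTCNNGAA, in capitals.
Hspa1a: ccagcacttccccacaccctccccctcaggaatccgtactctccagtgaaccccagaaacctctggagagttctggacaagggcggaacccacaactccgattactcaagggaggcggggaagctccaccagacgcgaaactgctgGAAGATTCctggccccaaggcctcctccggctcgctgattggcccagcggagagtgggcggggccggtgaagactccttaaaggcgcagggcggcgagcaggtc
Hspa1b: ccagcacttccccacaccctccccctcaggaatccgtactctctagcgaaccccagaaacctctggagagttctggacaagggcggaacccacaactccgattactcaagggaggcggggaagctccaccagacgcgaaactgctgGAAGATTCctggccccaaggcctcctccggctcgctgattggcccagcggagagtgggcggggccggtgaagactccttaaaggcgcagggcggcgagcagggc
Each held 1 match at -104 to -97, and 12.8% of 32851 windows held at least 1. Over 21 heat shock genes the median interaction was 0.12, and 5 lay above 0 at an adjusted p under 0.1, against 2.76% of all genes. In tumour-bearing mice 2 rose (0 without replicate 3, 4 or 8 and 5 without 7), against 2.04% of all genes. Of the 2, Dnajb4, a co-chaperone gene, rose by 0.75 (adjusted p = 0.025). The 5 became 0, 2, 3, 0, 3 and 0 without replicates 2, 3, 4, 5, 6 and 8, and Dnajb4 lost its call without 3, 4 or 8.

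Genes chosen as the leading members of smaller classes are given as values. With tumour-bearing anti-IL-6R high, Serpinb10, a protease inhibitor gene, was -0.83 and -0.89 in tumour-bearing anti-IL-6R, -2.53 and -3.50 in tumour-bearing control, -3.12 and -2.51 in tumour-free anti-IL-6R and -2.75 and -2.48 in tumour-free control (interaction 2.35, adjusted p = 0.078). Ak4, a mitochondrial adenylate kinase, had an interaction of 2.37 (adjusted p = 0.076), not exact because its probe was not well above background in either tumour-free group. Txndc8, a thioredoxin domain gene, was well above background in tumour-bearing anti-IL-6R only and was kept through that group. It was at least 3.58-fold higher there than in tumour-bearing control (adjusted p = 0.024), and no size is given for its interaction (adjusted p = 0.074). With the same group low, Stk39, a stress kinase, stood at -0.71 and Rnu1a1, a U1 spliceosomal RNA, at -0.53. H2bc18, a histone gene, had -0.95, but 0.99 by its other probe. Tumour-free anti-IL-6R was low for the mast cell protease genes Mcpt4 (1.43, adjusted p = 0.074) and Cpa3 (1.38, adjusted p = 0.094). Cpa3 is on the basophil and mast cell list, where 6 of 10 measured genes had an interaction above 0 and 4 below. Of those 10, tumour-free anti-IL-6R stood apart low for 2, against 1.13% of all genes. Tumour-free control was high for Pinx1, a telomerase inhibitor (1.26, adjusted p = 0.073), and low for Cd200, an inhibitory ligand (-0.58, adjusted p = 0.081), and Ifi27l2a, an interferon-induced gene. Ifi27l2a stood at 7.36 and 7.24 in tumour-bearing anti-IL-6R, 7.69 and 7.62 in tumour-bearing control, 7.37 and 7.56 in tumour-free anti-IL-6R and 6.98 and 6.85 in tumour-free control (interaction -0.90, adjusted p = 0.058). With tumour-bearing control low, Prss12, a serine protease gene, had 1.56 (adjusted p = 0.050, rounded, not past it) and St6galnac1, a sialyltransferase gene, 1.38 (adjusted p = 0.057), but 0.06 by its other kept probe.

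Red cell genes, like the granule genes, fell in tumour-bearing mice. Of 26 erythroid markers 24 were measured, and 11 of the 24 fell in tumour-bearing mice under anti-IL-6R and 0 rose, against 3.84% of all genes lower. At an adjusted p under 0.1, 15 had an interaction below 0, against 4% of all genes. The median interaction was -1.87, between -2.48 and -1.14 over the alternatives. The list's median antibody effect was -1.16 in tumour-bearing and 0.83 in tumour-free mice, where 0 passed. For the neutrophil list these medians were -0.78 and 0.24. Gata1, the erythroid lineage factor, was 0.72 and 0.58 in tumour-bearing anti-IL-6R, 1.51 and 1.49 in tumour-bearing control, 0.84 and 0.93 in tumour-free anti-IL-6R and 0.71 and 0.71 in tumour-free control. It fell by 0.85 ± 0.09 in tumour-bearing mice (adjusted p = 0.016; interaction -1.02 ± 0.12, adjusted p = 0.054). Rhd, a blood group antigen gene, fell by 2.87 and Ahsp, the alpha-haemoglobin stabilising protein, by 2.64. In tumour-free mice Rhd stood at 1.55 and Ahsp at 1.71 (adjusted p = 0.59 and 0.56), so their interactions also drew on the tumour-free side. Haemoglobin itself had another order, with Hba-a1 at 9.14 and 8.86 in tumour-bearing anti-IL-6R, 9.36 and 8.82 in tumour-bearing control, 8.92 and 9.18 in tumour-free anti-IL-6R and 7.52 and 8.49 in tumour-free control. The summed scaled signal of the list was 1410.73 and 1150.75 in tumour-bearing anti-IL-6R, 1771.03 and 1156.78 in tumour-bearing control, 1207.79 and 1428.04 in tumour-free anti-IL-6R and 473.39 and 879.52 in tumour-free control. Without replicates 8, 3 and 4 the number that fell was 0, 1 and 5, and those at 0.1 became 0, 1, 1 and 0 without 2, 3, 5 and 8. Gata1 lost its call without 8, and Rhd and Ahsp without 3, 4 or 8. The part of these cells in the T cell results was not tested.

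B cell markers and most natural killer (NK) cell markers lay on the opposite side. All 18 measured B cell genes had an interaction above 0, with a median of 0.70, and 5 rose in tumour-bearing mice, against 2.04% of all genes higher. Cr2, complement receptor 2, was 2.24 and 2.21 in tumour-bearing anti-IL-6R, 1.48 and 1.12 in tumour-bearing control, 2.11 and 2.19 in tumour-free anti-IL-6R and 2.12 and 2.68 in tumour-free control, and rose by 0.92 (adjusted p = 0.033). The summed B cell signal was 83.05 and 78.51 in tumour-bearing anti-IL-6R, 66.10 and 47.09 in tumour-bearing control, 80.36 and 81.21 in tumour-free anti-IL-6R and 72.90 and 92.70 in tumour-free control. Of 15 NK genes 6 rose, against the same 2.04%, with a median interaction of 0.46. Of their interactions 12 lay above 0 and 3 below, the lowest at -0.67. Tumour-bearing control stood apart low for 8 and high for 2, against 7.37% and 10.5% of all genes. Eomes (interaction -0.28) was among the 2. Klra4, a receptor gene of the Ly49 family, stood at -0.60 and -0.67 in tumour-bearing anti-IL-6R, -1.71 and -2.00 in tumour-bearing control, -0.69 and -0.32 in tumour-free anti-IL-6R and -0.52 and -0.33 in tumour-free control. It rose by 1.22 ± 0.16 (adjusted p = 0.024; interaction 1.31, adjusted p = 0.074), beside its relatives Klra8 (1.17), Klra7 (1.05) and Klra1 (0.93), whose sequences are close enough that probes may read more than 1. The summed NK signal was 34.05 and 36.20 in tumour-bearing anti-IL-6R, 24.54 and 23.29 in tumour-bearing control, 34.11 and 36.02 in tumour-free anti-IL-6R and 33.10 and 35.86 in tumour-free control, so tumour-bearing control lay below all other arrays.

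Of 14 pan T cell markers 1, Thy1, fell in tumour-bearing mice, against 3.84% of all genes. The markers had a median interaction of -0.34, with 14 of 14 below 0 (61% over all genes). Their summed signal was 1221.05 and 1093.27 in tumour-bearing anti-IL-6R, 1370.94 and 1389.51 in tumour-bearing control, 1311.23 and 1249.62 in tumour-free anti-IL-6R and 1292.34 and 1156.65 in tumour-free control. B cell genes that rose numbered 0 without replicate 4 or 8, 1 without 7 and 3 without 3, 5 or 6. NK genes numbered 0 without 8 and 4 without 3 or 4. Cr2 lost its call without 3, 4, 7 or 8, Klra4, Klra7 and Klra8 without 8, Klra1 without 3, 4 or 8 and Thy1 without 3, 4, 5, 6, 7 or 8.

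For the remaining lists the median interaction was 0.41 for the 2 CD8 genes, 0.32 for dendritic cell and MHC class II and 0.36 for basophil and mast cell. It was 0.42 for platelet and 0.00 for fibroblast genes, the last standing for the tumour line. Macrophage and monocyte genes were at 0.21, but between -0.29 and 0.68 over the alternatives, so the sign was not stable. Plasma cell genes were at -0.46, where Derl3, an endoplasmic reticulum protein, was the 1 of 10 that fell, by 0.92 (adjusted p = 0.024), against 3.84% of all genes. Naive and quiescence genes stood at 0.08, and Il7r, the IL-7 receptor of resting T cells, was the 1 of 19 that rose, against 2.04% of all genes. Il7r had 6.30 and 6.26 in tumour-bearing anti-IL-6R, 5.47 and 5.71 in tumour-bearing control, 6.37 and 6.26 in tumour-free anti-IL-6R and 5.97 and 5.87 in tumour-free control, so both control groups lay below both anti-IL-6R groups (interaction 0.29, adjusted p = 0.21). The 13 cytotoxic genes were at -0.25, the 16 helper cytokine genes at -0.05 and the 17 NF-kappaB genes at -0.01. T cell activation genes, which share Icos and Batf with lists above, were at -0.34 (between -0.42 and -0.24 over the alternatives). Of 24 measured, 6 fell and 1 rose in tumour-bearing mice, against 3.84% and 2.04% of all genes. These counts too depended on single arrays. Il7r lost its call without replicate 8 and Derl3 without 3, 4 or 8.

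**Figure D5:**
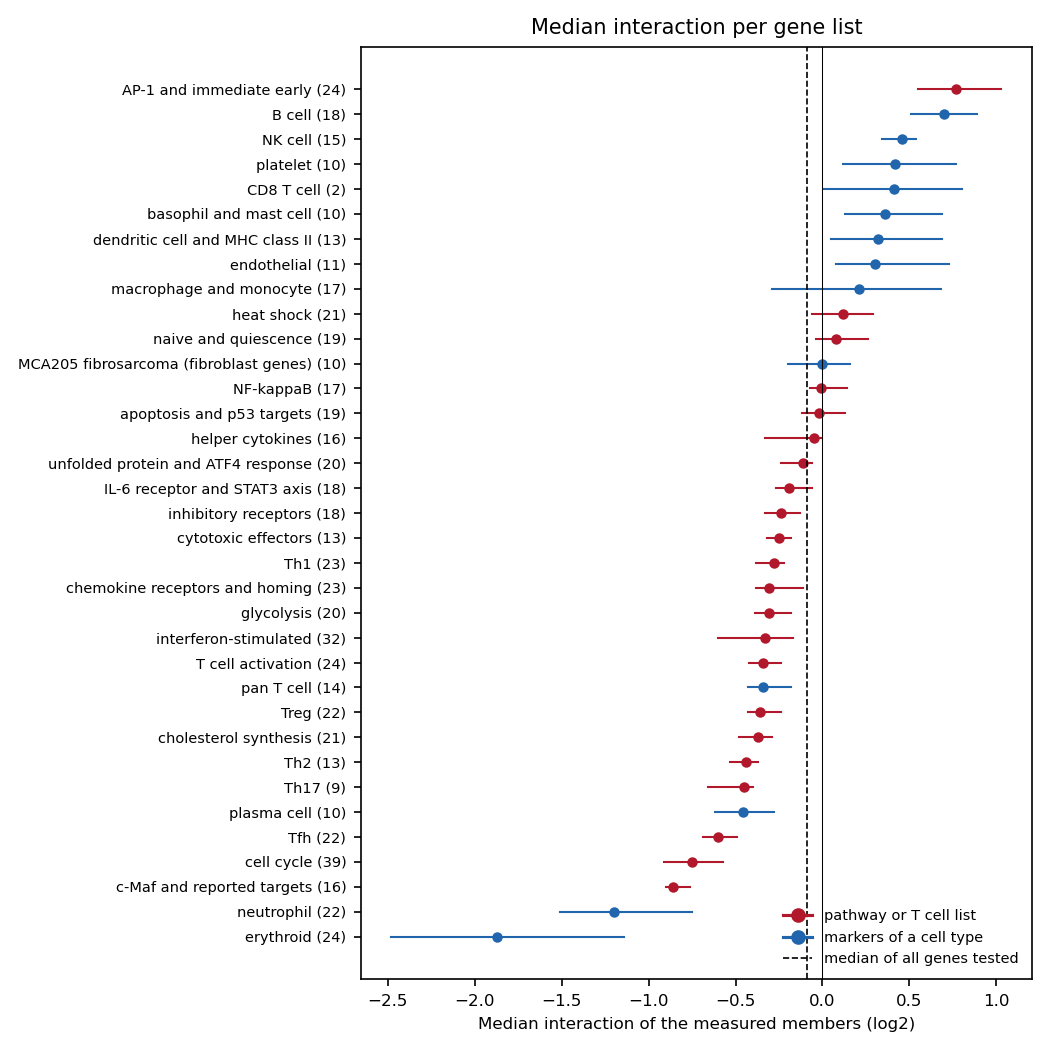
Median interaction (log2) of the measured members of each gene list, with lines from the lowest to the highest median over the alternative settings; numbers in brackets are measured members and the dashed line is the median of all genes, -0.09. Erythroid (-1.87) and neutrophil (-1.20) markers lie lowest and immediate early (0.77) and B cell (0.70) genes highest.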

How the data were processed

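RNA of CD4+ T cell isolates was hybridised to 8 one-colour Agilent arrays. The deposited scanner files give intensity per spot, which the authors read with Agilent Feature Extraction (version 10.10.1.1 in the submitters' processing notes) and which is background-subtracted, per the file headers. How the authors made the deposited value table of log2 values is not stated. Its columns (medians -3.329 to -3.088) matched the log2 processed signal less the 75th percentile of that array at r = 1 and served as an alternative.

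Of 62976 spots, 3671 controls and 60 to 95 outlier spots per array were left out and repeated spots averaged, leaving 56587 probes. Each array's log2 signals were centred on its 75th percentile (signal 500.4 to 526.5). A probe was kept where some group had it clearly over background on each of its arrays (32039 probes), and the brightest kept probe represented its gene (21519 genes, of which 6922 had several). For 32986 probes the gene name came from a RefSeq accession and for 10740 from a symbol or older symbol, and 12861 kept their name in the file. The dimmest signal called well above background was 24.15 to 36.28 per array, and groups dim on both arrays were given a bound from it.

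In R 4.3.3 (data.table at version 1.17.8), limma 3.58.1 fitted 4 group means to all 8 arrays with a variance trend (4 residual and 4.15 prior degrees of freedom). Tests were two-sided with Benjamini-Hochberg adjustment, and the code was tested on simulated data. Genes were named by rule: in each class up to 5 past the threshold by size of the interaction, or up to 3 by smallest p as values, a set of chosen genes, and up to 4 members of each list by smallest p. Those added after their values were seen are Lcn2, Ctsg, S100a8, S100a9, Hba-a1, Havcr2, Ccl4, Bbc3, Egr2, Cd3e, Cd4 and C530050E15Rik. All members and lists were chosen with earlier results of these data known. Lists were described by counts and medians. Alternatives changed the background correction, normalization, value source, dim-probe filter, probe choice and variance model, and left out each array in turn. RefSeq promoter windows (GRCm38.p6) covered 12428 of the genes. Plots used Python 3.11.15, pandas 2.3.3 and matplotlib 3.10.9.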

Additional observations from a re-analysis of the deposited data

Results flagged for a closer look

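The antibody effect differed between tumour-bearing and tumour-free mice, by limma's test of the interaction itself, for 9 genes at an adjusted p under 0.05. The interaction was -5.34 for Ngp, -5.23 for Ltf, -4.42 for Camp and -2.56 for Mpo, 4 genes of neutrophil granules. It was -4.51 for Apol11b and -1.51 for Tox2. Values of 3.90 for Firre, -4.80 for 4930523O13Rik and 1.29 for Bmf came from other orders of the groups. The sizes for Ngp, Mpo and 4930523O13Rik are not exact, since tumour-bearing anti-IL-6R (Ngp), tumour-free anti-IL-6R (Mpo) and every group but tumour-free anti-IL-6R (4930523O13Rik) were not well above background. The sizes for Ltf and Apol11b are uncertain too, since 1 of the 2 tumour-free control arrays was not well above background. The probe of 4930523O13Rik was kept only through the group where it was high. Other probes of Firre, Tox2 and Bmf gave 0.18, 0.13 and 0.21. Each rests on 2 arrays per group.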

How the results depend on the processing

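No paired analysis was possible because the arrays are numbered 1 to 8 across the groups and the labels do not say which belong to the same experiment. The slide as a block was not run, since all arrays were on 1 slide. With 2 arrays per group, precision is limited throughout, and dim probes give bounds only. With all arrays and settings as reported, the interaction passed for 9 genes, 2 above 0 and 7 below. It passed for 12 with normexp, 5 with quantile normalization (0 above 0), 0 with no filter on dim probes (0 in each direction, smallest adjusted p 0.10, 6067 at an unadjusted p under 0.05 in limma), 1 with probes well above background on all 8 arrays (0 above, 1 below), 3 for the mean of kept probes (0 above, 3 below), 16 with no intensity trend (7 above) and 7 with array weights (1 above). At an adjusted p under 0.1, chosen after seeing the data, it passed for 1454, 593 above and 861 below. Sorted by the group apart, those were 773 for tumour-bearing control, 45 for tumour-bearing anti-IL-6R, 18 for tumour-free anti-IL-6R, 61 for tumour-free control and 557 for no single group.

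With all arrays the 9 genes divided into 6, 0, 1, 1 and 1 in that order. Tumour-free anti-IL-6R had 2 with normexp, 4 with no trend and 0 with no filter, the all-array filter, the mean of probes and weights. Tumour-free control had 2 with no trend and 0 with quantile, no filter, the all-array filter and the mean of probes. No single group had 2 with no trend and with a gap of 2 times the range, and 0 with quantile, no filter, the all-array filter, the mean of probes and weights. Tumour-bearing control had 0, 1 and 3 with no filter, the all-array filter and the mean of probes, and tumour-bearing anti-IL-6R 2 with no trend. Over all genes, no filter gave 8293 for tumour-bearing control and 1371 for tumour-free anti-IL-6R. A gap of 2 times the range gave 517 for tumour-bearing anti-IL-6R, 1784 for tumour-bearing control, 403 for tumour-free anti-IL-6R and 381 for tumour-free control.

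The antibody effect in tumour-bearing mice passed for 1266 genes as reported, 25 with no filter, 87 with no trend and 4119 at 0.1. In tumour-free mice it passed for 4 as reported, 21 with normexp, 9 with quantile, 8 with no filter, 1 with the all-array filter, 2 with the mean of probes, 11 with no trend and 19 at 0.1.

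Leaving out each array in turn, the interaction passed for 3 to 466 genes (0 to 333 above 0, 2 to 191 below), which sorted into 1 to 141 for tumour-bearing control, 0 to 72 for tumour-bearing anti-IL-6R, 0 to 35 for tumour-free anti-IL-6R, 0 to 26 for tumour-free control and 0 to 243 for none. Over all genes the groups held 3048 to 5850, 906 to 4337, 724 to 2260 and 717 to 2559. The antibody effect passed for 19 to 1721 genes in tumour-bearing and 0 to 30 in tumour-free mice. The mean of kept probes reversed H2bc18 (0.02), Hspa4l (-0.04), Cd28 (0.50) and Siglech (-0.80). Cd8b1 reversed with quantile normalization (0.04) and without replicates 3 and 8 (0.16 and 0.01), Il12rb2 without 1, 6 and 7 (0.09, 0.05 and 0.00) and Prdm1 without 1 and 6 (0.15 and 0.00). With single arrays left out these 3 ranged between -0.39 and 0.16, -0.24 and 0.09, and -0.24 and 0.15. The causes were not tested.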

Other observations

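Cholesterol synthesis genes had tumour-bearing anti-IL-6R as the group that stood apart, low for 11 of 21 measured members, against 3.69% of all genes. For 8 no single group stood apart, and for 2 it was tumour-bearing control. Their median interaction was -0.37, and 2 of the 21 passed an adjusted p of 0.1, against 6.76% of all genes. Sqle, squalene epoxidase, was 2.14 and 2.01 in tumour-bearing anti-IL-6R, 2.44 and 2.61 in tumour-bearing control, 2.46 and 2.57 in tumour-free anti-IL-6R and 2.56 and 2.37 in tumour-free control. It fell by 0.45 in tumour-bearing mice (adjusted p = 0.045), with an interaction of -0.50 (adjusted p = 0.10). Pmvk, phosphomevalonate kinase, fell by 0.48 (adjusted p = 0.026), and 3 of the 21 fell in all, against 3.84% of all genes. Without replicate 3, 4 or 8 that number was 0, and without 7 it was 5. Sqle lost its call without 1, 2, 3, 4, 5, 7 or 8 and Pmvk without 3, 4 or 8.

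Interferon-stimulated genes had a median interaction of -0.33, with 27 of 32 below 0, against 61% of all genes. Tumour-free control stood apart, low, for 13 of the 32, against 1.98% of all genes. Isg15, a ubiquitin-like protein, was 4.27 and 4.23 in tumour-bearing anti-IL-6R, 4.81 and 4.41 in tumour-bearing control, 3.94 and 4.59 in tumour-free anti-IL-6R and 3.67 and 3.50 in tumour-free control (interaction -1.04, adjusted p = 0.099). The median antibody effect of the list was 0.07 in tumour-bearing and 0.39 in tumour-free mice, where none passed. Of 11 endothelial genes 5 rose in tumour-bearing mice, against 2.04% of all genes. The median antibody effect of the list was 0.99 in tumour-bearing and 0.57 in tumour-free mice. Those that rose included Robo4 by 1.69 ± 0.17 (adjusted p = 0.016; interaction 0.89, adjusted p = 0.099) and Flt1 by 1.30 (adjusted p = 0.027). In tumour-free mice Robo4 stood at 0.80 (adjusted p = 0.38) and Flt1 at 0.50 (adjusted p = 0.63). The number was 1, 1 and 0 without replicates 3, 4 and 8, and Robo4 lost its call without 8 and Flt1 without 3, 4 or 8.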
